A study of Mus musculus with 6 samples.

Results

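Dermal fibroblasts build the connective tissue that lies under the epidermis, and 43 genes of that cell type and its matrix were followed through 6 libraries of back skin epidermis. They were taken by gene symbol from the 30386 genes of the deposited table, and all 43 were found. The list holds fibrillar and other collagens, basement membrane collagens, glycoproteins and elastic fibre proteins, proteoglycans, matricellular proteins, matrix enzymes with their inhibitors, and mesenchymal receptors and transcription factors. The tissue was epidermis of mouse embryos at E18.5, separated from dermis by overnight Dispase digestion and dissociated with Accutase. The groups were p63alphaKO (3 libraries), a genotype named for the alpha isoforms of the transcription factor p63, and wild type (WT, 3 libraries). How the p63alphaKO allele was made, the strain, and whether a library came from 1 embryo or from several are not stated in the labels, so p-values measure the spread between these libraries, which may be technical.

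In skin, collagen fibrils are assembled outside the cell from procollagens that fibroblasts secrete. Type I and type III collagen form the bulk of the fibril, type V sits in its core, and small leucine-rich proteoglycans coat its surface. Fibrillins and elastin make the elastic fibres. Keratinocytes, the epithelial cells of the epidermis, rest on a basement membrane of type IV collagen and laminins, to which both they and fibroblasts contribute. An enzymatic split of skin is seldom complete, so RNA of dermal cells is commonly found in epidermal preparations. Lower levels of fibroblast genes in such bulk RNA can come, among other ways, from fewer fibroblasts in the sample or from less of these mRNAs per fibroblast. These 2 cannot be told apart here. Reads of the same genes from other cells, such as keratinocytes, are not separated in bulk RNA either.

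Libraries were made from mRNA 3′ ends, and levels are given as CPM, reads per gene scaled to the total reads of the library. Library totals lay between 3352866 and 3542101 reads for p63alphaKO and between 2566406 and 4478549 reads for WT. Trp63, the gene that encodes p63, was at 143, 146 and 136 CPM in p63alphaKO libraries 1, 2 and 3 and at 63.9, 71.7 and 87.2 CPM in WT libraries 1, 2 and 3. A count per gene does not separate isoforms, so the count cannot show whether alpha forms were lost. The 10 keratinocyte markers, among them Krt5, Krt14, Krt1, Krt10 and Lor, were all detected and summed to 117650 to 124834 CPM in p63alphaKO and to 115331 to 127887 CPM in WT. Krt10, Krt1 and Flg held most of these sums. Krt5 was at 2002, 1612 and 1851 CPM in p63alphaKO and at 1037, 1602 and 1871 CPM in WT. Krt14 was at 2536, 2009 and 2243 CPM in p63alphaKO and at 1159, 2424 and 1789 CPM in WT.

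Most fibroblast and matrix genes were lower in p63alphaKO epidermis than in WT epidermis. Of the 43 genes, 31 had a mean of at least 10 CPM over the 6 libraries and were tested. Of these, 22 fell and 0 rose at an adjusted p under 0.05 (limma on log2(CPM + 1), Benjamini-Hochberg over all 7464 tested genes), while 1.18% of all tested genes were called lower and 0.469% higher. The median log2 fold change, p63alphaKO over WT, was -1.82 over the 31 tested members and -0.085 over all tested genes. Col1a1 had the largest fall of the 88 genes called lower, and 3 of the 10 largest falls were fibrillar collagens. Members made up 22 of those 88 genes. With TMM scaling, a normalization that corrects for composition, 20 of the 22 stayed called, against 0.872% of all tested genes called lower and 0.644% higher. That scaling gave 65 lower and 48 higher calls over all genes, where the deposited scaling gave 88 and 35. With edgeR on the recovered reads 18 members were called lower, against 0.817% of all tested genes. Without p63alphaKO replicate 3 the number of members called was 13, and it was between 16 and 24 with any other library left out.

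The filter on the mean bears on these counts. Of the 31 tested members, 8 had a p63alphaKO mean under 10 CPM and passed through the WT libraries: Col6a1, Fbn1, Fbn2, Eln, Lum, Bgn, Zeb2 and Thy1. All of these but Zeb2 and Thy1 were called lower. Over all 7464 tested genes, 419 had a p63alphaKO mean under 10 CPM. Through the p63alphaKO libraries alone 0 members passed, so the share of tested members that fell is a description of those genes. The same holds for the counts by role below, which stand against 1.18% of all tested genes called lower. Over all 43 members, without a filter, the median log2 fold change was -1.80, against -0.13 over the 16363 genes detected in any library. All 3 p63alphaKO libraries lay below all 3 WT libraries for 34 of the 43 members, against 11.5% of the detected genes, and for 26 of the 31 tested members, against 13.4% of the tested genes. The ranges of the groups overlapped for Col4a1, Postn, Tnc, Timp3, Vim, Fmod, Thbs2, Loxl1 and Mfap5.

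**Figure D1:**
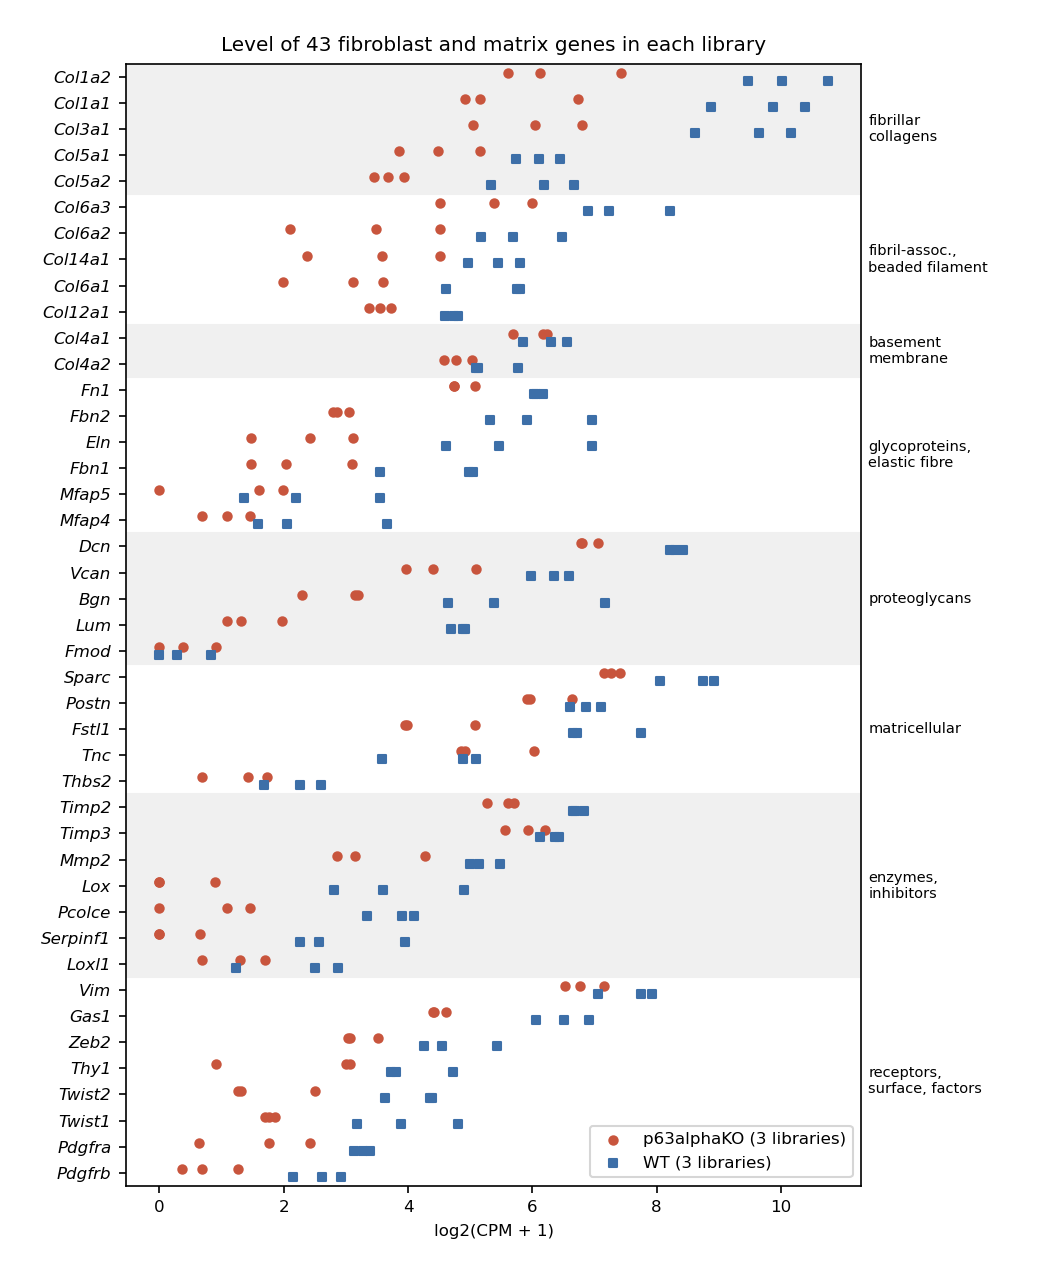
Level of each of the 43 genes in each library, as log2(CPM + 1) on the horizontal axis, with genes grouped by role and ordered by mean level within a role. Circles are the 3 p63alphaKO libraries and squares the 3 WT libraries. For 34 genes every circle lies left of every square.

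All 5 fibrillar collagens fell, and Col1a2, Col1a1 and Col3a1 had the highest WT means of the list. Col1a2, which encodes the second chain of type I collagen (chromosome 6, 4504814 to 4541544, plus strand, mm10), was at 68.6, 172 and 47.7 CPM in p63alphaKO, against 1724, 708 and 1041 CPM in WT. Col1a1, which encodes the other chain (chromosome 11, 94936224 to 94953042, plus strand), was at 29.4, 106 and 34.6 CPM in p63alphaKO, against 1347, 468 and 938 CPM in WT. Col3a1, the single chain of type III collagen (chromosome 1, 45311538 to 45349706, plus strand), was at 64.7, 111 and 32.2 CPM in p63alphaKO, against 1142, 392 and 804 CPM in WT. For all 3 genes p63alphaKO library 2 was the highest of its group, and the lowest WT library was more than 3 times above it.

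The log2 fold change was -4.11 for Col1a1 (SE 0.41, adjusted p = 0.000219), -3.70 for Col1a2 (SE 0.38, adjusted p = 0.000219) and -3.51 for Col3a1 (SE 0.39, adjusted p = 0.000476), all by limma. In group means these are 16.2-fold, 12.1-fold and 11.2-fold lower levels. The calls of these 3 genes held under each of the 19 alternatives run, which include leaving out each library in turn. Col5a2, a chain of type V collagen, was at 11.9, 9.90 and 14.3 CPM in p63alphaKO, against 101, 39.3 and 72.1 CPM in WT (log2 fold change -2.37, limma adjusted p = 0.00133), and its call held under each of the 18 alternatives in which it was tested.

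Its partner chain Col5a1 had the smallest fall of the 5. Col5a1 was at 21.5, 34.6 and 13.4 CPM in p63alphaKO, against 86.5, 52.2 and 67.7 CPM in WT (log2 fold change -1.60, SE 0.31, limma adjusted p = 0.0172). That call was lost without p63alphaKO replicate 1 or 3 or without WT replicate 1 (adjusted p = 0.0734, 0.0917 and 0.0527). The 95% confidence intervals were -4.99 to -3.23 for Col1a1 and -2.26 to -0.94 for Col5a1.

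The sequence before the start of transcription is shown for 4 called members. They are those with the largest falls that have a single start in the RefSeq promoter table (GRCm38.p6), whose stretch lies wholly outside the gene as annotated, and which may be printed. Of the 43 members, 27 had an entry in that table, and its start can differ from the annotated end of the gene. Each line gives the 250 bases before the RefSeq start, 5′ to 3′ on the strand of the gene, for Col3a1 (chr1:45311288-45311537, plus strand), Bgn (chrX:73483351-73483600, plus strand), Col6a3 (chr1:90843972-90844221, minus strand) and Gas1 (chr13:60177536-60177785, minus strand). Capitals mark matches on either strand to TATAAA (the TATA box), CCAAT (the box bound by NF-Y), GGGCGG (the GC box bound by Sp1-type factors) and TGANTCA (the site of AP-1 factors).
Col3a1: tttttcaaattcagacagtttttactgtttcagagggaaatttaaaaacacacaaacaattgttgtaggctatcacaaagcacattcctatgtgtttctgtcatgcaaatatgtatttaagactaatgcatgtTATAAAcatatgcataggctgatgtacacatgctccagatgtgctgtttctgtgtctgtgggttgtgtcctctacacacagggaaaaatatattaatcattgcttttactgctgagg
Bgn: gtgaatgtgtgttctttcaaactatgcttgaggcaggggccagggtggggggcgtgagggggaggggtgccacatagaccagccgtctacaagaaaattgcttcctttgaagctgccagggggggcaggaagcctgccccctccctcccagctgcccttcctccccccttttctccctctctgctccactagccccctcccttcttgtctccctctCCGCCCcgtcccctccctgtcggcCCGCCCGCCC
Col6a3: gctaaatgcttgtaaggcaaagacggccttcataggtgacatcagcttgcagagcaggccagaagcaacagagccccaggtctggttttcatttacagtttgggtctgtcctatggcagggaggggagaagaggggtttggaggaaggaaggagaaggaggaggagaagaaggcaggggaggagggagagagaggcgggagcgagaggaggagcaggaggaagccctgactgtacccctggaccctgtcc
Gas1: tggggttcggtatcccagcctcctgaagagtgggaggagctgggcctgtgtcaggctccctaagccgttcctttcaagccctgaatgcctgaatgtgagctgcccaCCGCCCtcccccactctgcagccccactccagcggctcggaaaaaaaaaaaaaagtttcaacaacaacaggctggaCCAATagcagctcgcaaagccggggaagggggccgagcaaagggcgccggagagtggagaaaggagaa

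Counted from the RefSeq start to the first base of the match, Col3a1 had TATAAA 117 bases before it. Bgn had GGGCGG on the minus strand 34, 10 and 6 bases before its start, the last 2 overlapping. Gas1 had GGGCGG on the minus strand 144 bases before its start and CCAAT 68 bases before it, and the Col6a3 stretch held none of the 4 motifs. GGGCGG was found before 9 of the 13 called members with an entry and before 4 of the 7 tested members without a call, against 32.7% of the 32851 promoters of the same length. CCAAT was found before 4 of 13 and 4 of 7, against 33.8%, TATAAA before 1 of 13 and 3 of 7, against 12.4%, and TGANTCA before 1 of 13 and 1 of 7, against 6.75%. A member with several starts was counted if any of them had the motif, while the percentages count single promoters. Zeb2 had 4 starts, and Col6a2, Postn and Tnc had 2 each. All of these are matches of letters and say nothing about binding.

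**Figure D2:**
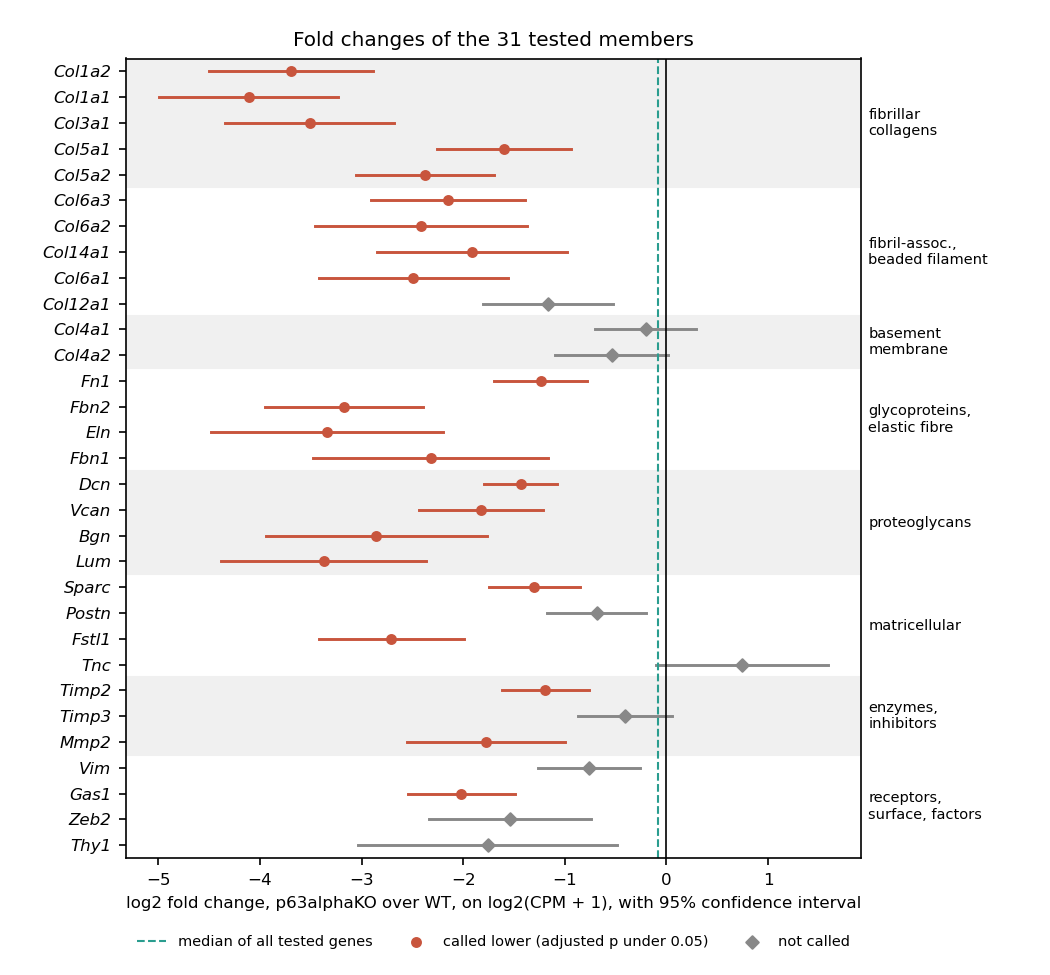
Log2 fold change of each of the 31 tested members, as log2(CPM + 1) in p63alphaKO minus that in WT, with its 95% confidence interval from limma, grouped by role. Circles were called lower and diamonds were not called, and the dashed line is the median of all tested genes at -0.085. Tnc at 0.74 is the single tested member with a positive value.

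Among the collagens that sit on or between fibrils, 4 of 5 fell, of which Col6a1 passed the filter only through its WT levels. Col6a3, the largest chain of type VI collagen, which forms beaded filaments around cells, was at 40.6, 62.6 and 21.8 CPM in p63alphaKO, against 296, 118 and 149 CPM in WT (log2 fold change -2.15, SE 0.36, limma adjusted p = 0.00688). Col6a1 was at 7.62, 11.1 and 2.98 CPM in p63alphaKO and at 54.5, 23.4 and 53.2 CPM in WT (-2.49, adjusted p = 0.00901). Col6a2, the third chain, was at 10.2, 21.8 and 3.28 CPM in p63alphaKO and at 88.5, 35.3 and 50.4 CPM in WT (-2.42, adjusted p = 0.0210). All 3 chains were lowest in p63alphaKO library 3 and highest in WT library 1. The call of Col6a2 was lost with edgeR (adjusted p = 0.0618) and without p63alphaKO replicate 1 or 3 or WT replicate 1 (adjusted p = 0.0747, 0.0892 and 0.0721), and that of Col6a3 without p63alphaKO replicate 3 (0.0531).

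Col14a1, a collagen that binds the fibril surface, was at 11.01, 21.8 and 4.18 CPM in p63alphaKO, against 54.5, 30.1 and 42.8 CPM in WT (log2 fold change -1.91, SE 0.44, limma adjusted p = 0.0423). It lost its call with TMM scaling (adjusted p = 0.0565), with edgeR (0.0896) and without p63alphaKO replicate 1 or 3 or WT replicate 1 or 3 (0.108, 0.161, 0.0959 and 0.0791). Col12a1, its relative, was at 9.32, 12.2 and 10.7 CPM in p63alphaKO and at 26.9, 25.7 and 23.3 CPM in WT. The groups of Col12a1 did not overlap, but its value of -1.17 did not pass the test (limma adjusted p = 0.0646, 95% confidence interval -1.80 to -0.53). Col12a1 passed in 3 of 18 alternatives: without a variance trend, with library quality weights and with DESeq2.

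The type IV collagens of the basement membrane did not pass the test. Col4a1 was at 74.5, 71.0 and 50.4 CPM in p63alphaKO and at 77.5, 56.9 and 93.2 CPM in WT, and its value was -0.21 (log2, SE 0.23, limma adjusted p = 0.734, 95% confidence interval -0.70 to 0.29). Col4a2 was at 31.6, 26.2 and 23.0 CPM in p63alphaKO and at 33.1, 33.9 and 53.8 CPM in WT, and its value was -0.54 (log2, SE 0.26, adjusted p = 0.335, 95% confidence interval -1.10 to 0.016). Both intervals lie above those of Col1a1, Col1a2, Col3a1 and Col5a2. The 2 genes lie head to head on chromosome 8 and their exons overlap on opposite strands.

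The glycoproteins and elastic fibre genes that could be tested all fell, but Eln, Fbn1 and Fbn2 passed the filter only through their WT levels. Fn1, the cell-binding glycoprotein fibronectin, was at 25.7, 32.9 and 25.6 CPM in p63alphaKO, against 65.5, 71.5 and 64.5 CPM in WT (log2 fold change -1.24, SE 0.21, limma adjusted p = 0.00898). Eln, which encodes elastin, was at 7.62, 4.37 and 1.79 CPM in p63alphaKO, against 124, 23.4 and 43.1 CPM in WT (-3.34, SE 0.53, adjusted p = 0.00590). WT library 1 held by far the highest Eln level, and without it the value was -2.70 (adjusted p = 0.0240). Fbn2, the fibrillin most made before birth, was at 5.93, 7.28 and 6.26 CPM in p63alphaKO, against 124, 39.1 and 59.5 CPM in WT (-3.17, SE 0.36, adjusted p = 0.000558).

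Fbn1, the main fibrillin of adult tissue, was at 3.11, 7.57 and 1.79 CPM in p63alphaKO, against 31.9, 10.7 and 30.5 CPM in WT (log2 fold change -2.32, SE 0.54, limma adjusted p = 0.0456). The Fbn1 call was among the least stable: it was lost with TMM scaling (adjusted p = 0.0570), with edgeR (0.0585), with the replicate block (0.0557), without p63alphaKO replicate 1 or 3 (0.115 and 0.191) and without WT replicate 1 or 3 (0.110 and 0.169). Fn1 lost its call without p63alphaKO replicate 1 or 3 (0.0560 and 0.0531). The microfibril-associated genes Mfap4 and Mfap5 were under the minimum for testing. Mfap4 was at 0.60 to 1.75 CPM in p63alphaKO and 2.01 to 11.7 CPM in WT, and Mfap5 at 0 to 2.98 CPM in p63alphaKO and 1.56 to 10.7 CPM in WT.

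All 4 tested proteoglycans fell, by very different amounts, but Lum and Bgn passed the filter only through their WT levels. Dcn, which encodes decorin, a fibril-coating small leucine-rich proteoglycan, was at 109, 133 and 111 CPM in p63alphaKO, against 314, 342 and 298 CPM in WT (log2 fold change -1.43, SE 0.17, limma adjusted p = 0.000558). Lum, which encodes lumican of the same family, was at 1.13, 2.91 and 1.49 CPM in p63alphaKO, against 29.2, 28.6 and 24.9 CPM in WT (-3.37, SE 0.47, adjusted p = 0.00185). Dcn and Lum varied little within WT, and their intervals do not overlap (-1.79 to -1.08 for Dcn and -4.39 to -2.36 for Lum).

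Bgn, which encodes biglycan, was at 7.90, 8.15 and 3.88 CPM in p63alphaKO, against 144, 23.9 and 40.6 CPM in WT (log2 fold change -2.85, SE 0.51, limma adjusted p = 0.00989). WT library 1 set much of its size: without it the value was -2.13 (adjusted p = 0.0259), and without p63alphaKO replicate 3 the call was lost (0.0884). Vcan, the large hyaluronan-binding proteoglycan versican, was at 20.0, 33.2 and 14.6 CPM in p63alphaKO, against 95.9, 61.9 and 80.6 CPM in WT (-1.82, SE 0.29, adjusted p = 0.00537). Fmod, which encodes fibromodulin, had 0 to 3 reads in every library of either group, so no ratio is given.

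The matricellular proteins, which modulate how cells meet the matrix, were mixed. Sparc, a collagen-binding glycoprotein gene, was at 141, 169 and 153 CPM in p63alphaKO, against 485, 265 and 427 CPM in WT (log2 fold change -1.30, SE 0.21, limma adjusted p = 0.00629, and 0.0531 without p63alphaKO replicate 3). Fstl1, a secreted follistatin-like glycoprotein gene, was at 14.4, 32.6 and 14.9 CPM in p63alphaKO, against 215, 105 and 99.8 CPM in WT (-2.71, SE 0.33, adjusted p = 0.000748). Postn, which encodes periostin, was at 98.8, 61.4 and 59.0 CPM in p63alphaKO and at 137, 115 and 96.3 CPM in WT, and did not pass the test (-0.69, adjusted p = 0.146, 95% confidence interval -1.17 to -0.20).

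Tnc, which encodes tenascin-C, a glycoprotein known from developing and healing tissue, was at 28.0, 29.1 and 64.4 CPM in p63alphaKO and at 28.4, 33.3 and 11.02 CPM in WT. The groups of Tnc overlapped, its value of 0.74 did not pass the test (limma adjusted p = 0.391, 95% confidence interval -0.098 to 1.59), and it was 0.36 without p63alphaKO replicate 3 and 0.28 without WT replicate 3. The remaining member, Thbs2, which encodes thrombospondin 2, was under the minimum for testing, at 0.60 to 2.33 CPM in p63alphaKO and 2.20 to 5.07 CPM in WT.

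Of the matrix enzymes, inhibitors and crosslinkers, 3 could be tested and 2 fell. Timp2, an inhibitor of matrix metalloproteinases, was at 37.8, 48.0 and 51.3 CPM in p63alphaKO, against 102, 113 and 99.8 CPM in WT (log2 fold change -1.19, SE 0.20, limma adjusted p = 0.00731, and 0.0547 without p63alphaKO replicate 1). Mmp2, the gelatinase that TIMP2 helps to activate, was at 18.3, 7.86 and 6.26 CPM in p63alphaKO, against 43.6, 30.8 and 34.3 CPM in WT (-1.78, SE 0.36, adjusted p = 0.0229). The Mmp2 call was lost with edgeR (0.0566), without p63alphaKO replicate 2 or 3 (0.0738 and 0.129) and without WT replicate 1 (0.0636). Timp3, a matrix-bound inhibitor, was at 72.8, 60.3 and 46.2 CPM in p63alphaKO and at 81.4, 68.8 and 85.3 CPM in WT, and did not pass the test (-0.41, adjusted p = 0.393, 95% confidence interval -0.87 to 0.055).

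The other genes of that role lay under the minimum mean. Lox, the lysyl oxidase that crosslinks collagen and elastin, had 3, 0 and 0 reads in p63alphaKO and 74, 50 and 19 reads in WT. Pooled by group, its level was 48.2-fold lower in p63alphaKO, with an exact 95% interval of 16.1 to 236 that covers counting error only. Serpinf1, which encodes a secreted serpin that binds collagen, had 0, 2 and 0 reads in p63alphaKO and 37, 22 and 12 reads in WT, a ratio of 35.9 (interval 9.57 to 302). Pcolce, an enhancer of the enzyme that trims procollagen, had 4, 6 and 0 reads in p63alphaKO and 36, 41 and 51 reads in WT, a ratio of 12.9 (interval 6.81 to 27.6). When limma was run without the filter, Lox and Pcolce were called lower (adjusted p = 0.0289 and 0.0403) and Serpinf1 was not (0.0615), while 0.513% of the genes in that fit were called lower. Loxl1, a lysyl oxidase relative, was at 0.60 to 2.26 CPM in p63alphaKO and 1.34 to 6.30 CPM in WT, and the groups overlapped.

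In the receptors, surface proteins and transcription factors of mesenchyme, Gas1 was the called member among 4 tested. Gas1, which encodes a surface co-receptor for hedgehog ligands, was at 20.0, 20.4 and 23.6 CPM in p63alphaKO, against 65.5, 90.7 and 119 CPM in WT (log2 fold change -2.02, SE 0.24, limma adjusted p = 0.000714). Vim, the intermediate filament gene vimentin, was at 108, 142 and 91.6 CPM in p63alphaKO and at 243, 133 and 214 CPM in WT. The groups of Vim overlapped and its value of -0.76 did not pass the test (adjusted p = 0.114), though it did without WT replicate 2 (-1.02, adjusted p = 0.0330). Zeb2, a repressor of epithelial genes, had a value of -1.54 (adjusted p = 0.0523), and Thy1, a surface glycoprotein of fibroblasts, one of -1.76 (adjusted p = 0.156), without overlap between groups in either. Zeb2 passed without WT replicate 2 (adjusted p = 0.0424), with a pseudocount of 5 (0.0471), with library quality weights (0.0433) and with DESeq2 (0.00533). The value of Thy1 was -1.05 without p63alphaKO replicate 3 (adjusted p = 0.431).

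The growth factor receptor genes Pdgfra and Pdgfrb and the basic helix-loop-helix factor genes Twist1 and Twist2 lay under the minimum for testing. Twist2, a factor of early dermal cells, had 5, 16 and 5 reads in p63alphaKO and 50, 89 and 36 reads in WT, a pooled ratio of 6.8 (exact 95% interval 4.49 to 10.7, counting error only). Twist1 had 8, 9 and 8 reads in p63alphaKO and 69, 36 and 44 reads in WT, a ratio of 6.02 (interval 3.92 to 9.61). Pdgfra, a widely used fibroblast marker, had 2, 15 and 8 reads in p63alphaKO and 20, 39 and 30 reads in WT, a ratio of 3.60 (interval 2.29 to 5.85). Pdgfrb had 5, 1 and 2 reads in p63alphaKO and 17, 23 and 11 reads in WT, a ratio of 6.44 (interval 3.04 to 15.7). All 4 genes were without overlap between groups, and none was called when limma was run without the filter (adjusted p from 0.0550 to 0.252).

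**Figure D3:**
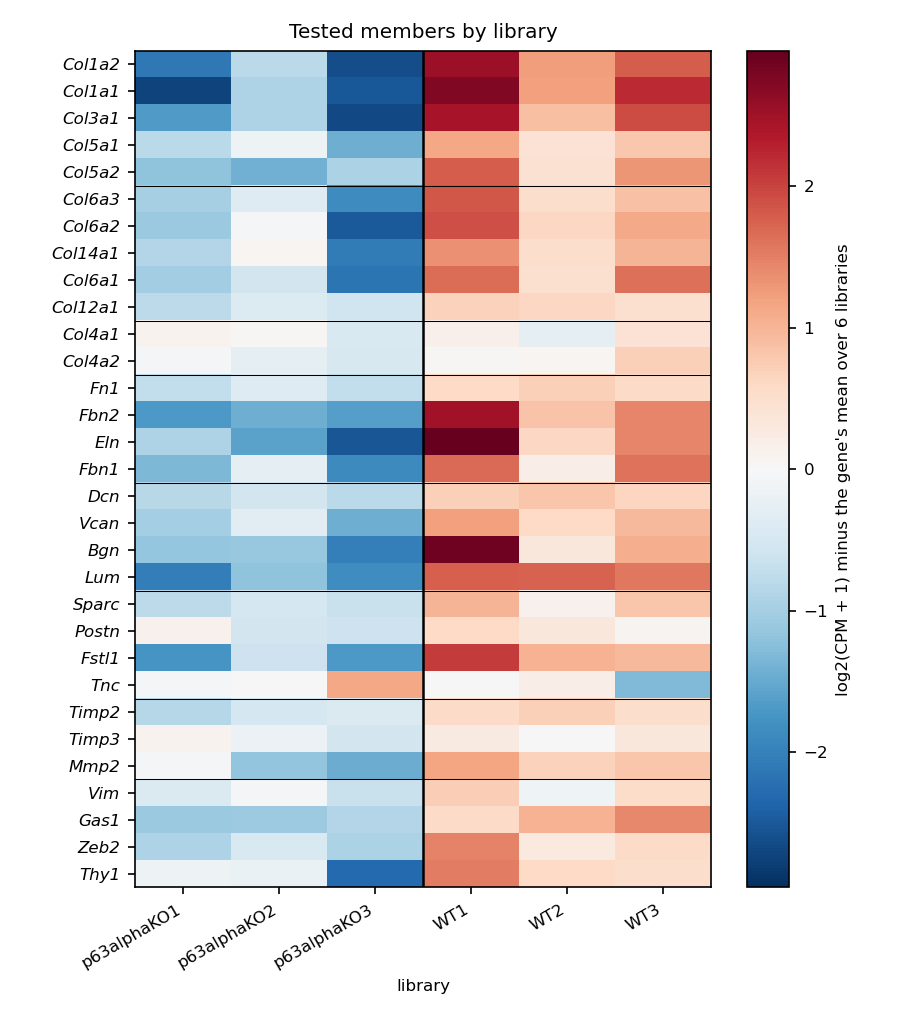
Log2(CPM + 1) of each tested member in each library, minus that gene's mean over the 6 libraries, with p63alphaKO libraries on the left and WT libraries on the right, and thin lines between roles. WT library 1 is the highest of the 6 for many collagens and for Eln and Bgn, while Dcn, Lum, Fn1 and Timp2 are near level across the WT libraries.

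Within each genotype most members were highest in the same library, but not all of them were. WT library 1 was the highest of the WT libraries for 30 of the 43 members, and p63alphaKO library 2 was the highest of its group for 28. In WT, 13 of the 31 tested members were at least 2 times higher in library 1 than in library 2, with Bgn at 6.02 times, Eln at 5.28 times and Col1a1 at 2.88 times. For 6 tested members WT library 1 was at or below library 2: Col4a2, Fn1, Dcn, Tnc, Timp2 and Gas1, with Gas1 the lowest at 0.722 times. The median of this ratio was 1.83 over the tested members and 0.935 over all tested genes. Dcn and Col1a1, both standard fibroblast markers, thus had unlike profiles across the WT libraries, and unlike falls of -1.43 and -4.11.

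The make-up of the members' summed CPM differed between the genotypes as well as its size. The 43 genes summed to 1128, 1500.0 and 955 CPM in p63alphaKO libraries 1, 2 and 3, against 7569, 3648 and 5339 CPM in WT libraries 1, 2 and 3, and the ratio of means was 4.62. Fibrillar collagens held 17.4%, 28.9% and 14.9% of that sum in p63alphaKO, against 58.1%, 45.5% and 54.8% in WT. Matricellular genes held 25.1% ± 5.45 in p63alphaKO and 12.6% ± 1.52 in WT, and basement membrane collagens 7.86% ± 1.47 in p63alphaKO and 2.24% ± 0.683 in WT (SD, n = 3 each). Vim alone was 9.55% ± 0.0840 of the sum in p63alphaKO and 3.62% ± 0.399 in WT. The shares of type VI, XII and XIV collagen genes together were near each other, at 6.71% ± 2.08 in p63alphaKO and 6.40% ± 0.453 in WT. Since shares add to a whole, a lower share of one role raises the others.

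**Figure D4:**
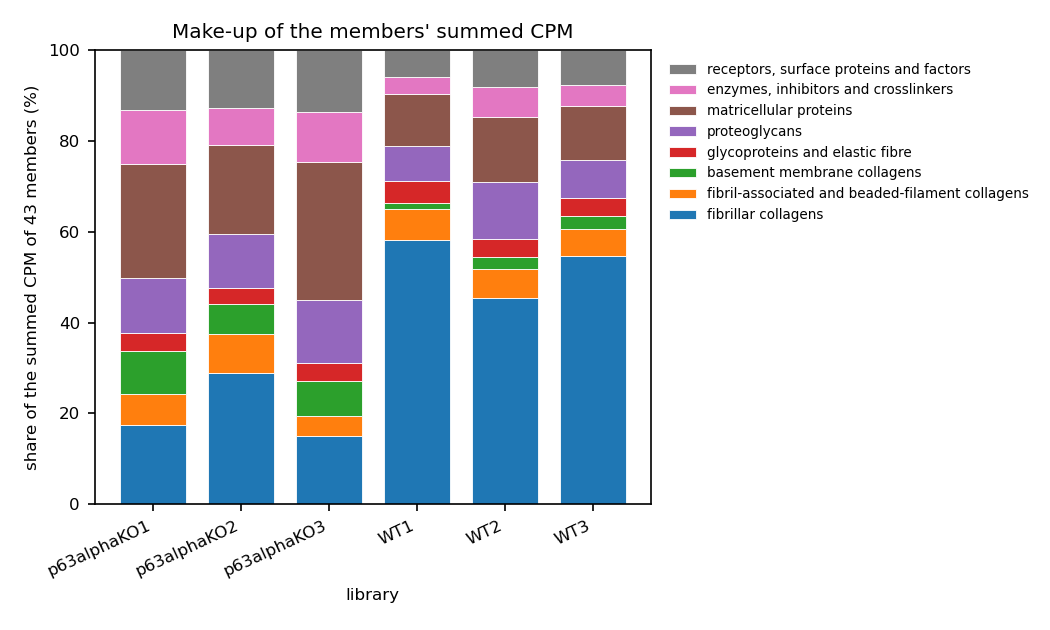
Share of the summed CPM of all 43 members held by each role, in percent, as stacked bars that add to 100 for each library. Fibrillar collagens, at the bottom, hold between 14.9% and 28.9% in p63alphaKO libraries and between 45.5% and 58.1% in WT libraries.

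Some stromal genes outside the 43 were lower too. Of 80 such genes of fibroblasts, matrix and growth factor signalling, 78 were detected and 41 were tested, of which 8 fell and 0 rose by limma, where 1.18% of all tested genes were called lower. The rest of the 41 did not pass the test. Every p63alphaKO library lay below every WT library for 34 of the 80, against 11.5% of the detected genes, and above for 2. It was below for 18 of the 41 tested, against 13.4% of the tested genes. When limma was run without the filter, 10 of the 78 were called lower, against 0.513% of the genes in that fit. Of the 41 values 32 were negative and 9 positive, and their median was -0.83 (log2). Nid2, a basement membrane glycoprotein gene chosen after its values were seen, had the highest positive value, at 21.2, 19.5 and 11.04 CPM in p63alphaKO and 10.1, 4.24 and 1.26 CPM in WT (1.79, adjusted p = 0.128), without overlap. The largest fall was that of Aspn, which encodes asporin, a relative of decorin, at 1.41, 0.87 and 0 CPM in p63alphaKO, against 42.9, 12.1 and 15.4 CPM in WT (-3.68, adjusted p = 0.0159). Mfap2, a microfibril gene, had a value of -2.07 (adjusted p = 0.0192), Prrx1, a homeobox factor gene of mesenchyme, -1.97 (0.0254), and Col16a1, a fibril-associated collagen gene, -1.66 (0.0172). Aspn and Prrx1 passed the filter only through their WT levels, and Nid2 only through its p63alphaKO levels. Igfbp4 and Igfbp5, which encode binding proteins of insulin-like growth factors, reached -1.86 and -1.64 (adjusted p = 0.00185 and 0.00898). Tcf4, a helix-loop-helix factor gene, had a value of -1.27 (0.0103), and Lgals1, which encodes galectin 1, one of -1.43 (0.0300). Pdgfa and Cyr61, the most abundant of those without a call, did not pass, at -0.11 (adjusted p = 0.867) and -0.49 (0.699). The number called was 4 without p63alphaKO replicate 1, 1 without p63alphaKO replicate 3 (Igfbp4) and, without WT replicate 1, 5, of which 1 was higher.

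Genes that modify, fold, trim or crosslink collagen, inside the cell or outside it, formed a list of 30. Of these, 12 were tested and 1 was called lower by limma, where 1.18% of all tested genes were called lower. Of the 12 values 8 were negative and 4 positive, with a median of -0.26 (log2). Over all 30, of which 29 were detected, every p63alphaKO library lay below every WT library for 10, against 11.5% of the detected genes. Among them, chosen after their values were seen, Loxl2, a lysyl oxidase relative under the minimum mean, was at 1.41, 2.33 and 0.60 CPM in p63alphaKO and at 30.4, 6.03 and 15.1 CPM in WT (adjusted p = 0.0700 when limma was run without the filter). Fkbp10, a collagen chaperone gene, was at 1.41, 0.58 and 1.19 CPM in p63alphaKO and at 12.9, 5.81 and 4.09 CPM in WT (0.167 in the same fit). The called gene was Sparcl1 (-1.91, adjusted p = 0.0391), which encodes a secreted relative of SPARC and not a collagen-modifying enzyme, and its call was lost with edgeR (0.0566), with TMM scaling (0.0592) and without each library but WT replicate 2. Sparcl1 passed the filter only through its WT levels. P4hb, a subunit of prolyl hydroxylase that also folds other proteins, was at 400.2 ± 64.5 CPM in p63alphaKO and at 375 ± 85.8 CPM in WT (SD, n = 3 each), and did not pass the test (0.11, adjusted p = 0.846). Ppib, a prolyl isomerase gene, had a value of -0.39 (adjusted p = 0.295), and Serpinh1, the collagen chaperone gene, chosen after its value was seen, one of -0.74 (adjusted p = 0.238).

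The summed markers of several other cell types were also lower in every p63alphaKO library than in every WT library. Within a genotype their order of libraries often differed from that of the members. Adipocyte sums were 59.2, 92.9 and 145 CPM in WT libraries 1, 2 and 3, and erythroid sums 566, 856 and 1770 CPM in p63alphaKO libraries 1, 2 and 3. Car3 alone held 17.9, 71.0 and 87.5 CPM of those adipocyte sums, and it set the order of WT libraries 1 and 2. Endothelial sums, like those of the members, were highest in WT library 1 and p63alphaKO library 2. The 10 skeletal muscle markers summed to 61.5 to 110 CPM in p63alphaKO and to 450 to 2903 CPM in WT, where library 2 was the highest. Of these markers 7 of 9 tested fell by limma, where 1.18% of all tested genes were called lower. Myl1, Neb, Myh8 and Ckm passed the filter only through their WT levels, and of these Myl1 and Neb were called. Tnnt3 lost its call with edgeR (adjusted p = 0.0554), and Tnnt3 and Tnnc2 lost theirs when limma was run without the filter (0.0781 and 0.0511). The 9 erythroid markers found summed to 566 to 1770 CPM in p63alphaKO and to 1907 to 3441 CPM in WT, with 3 of 4 tested called lower by limma. These globin genes have near-identical copies, between which reads may be split. All 3 erythroid calls were lost with edgeR (adjusted p = 0.168 for Hba-a2, 0.137 for Hbb-bs and 0.111 for Hbb-bt), and those of Hba-a2 and Hbb-bs without the filter (0.0766 and 0.0588). Endothelial markers summed to 6.76 to 10.2 CPM in p63alphaKO and to 29.6 to 69.0 CPM in WT, with 0 of 10 tested and Tek, Emcn and Cldn5 at 0 in p63alphaKO. The 8 adipocyte markers summed to 7.75 to 16.02 CPM in p63alphaKO and to 59.2 to 145 CPM in WT, with Car3 the single one tested and called lower, and Adipoq at 0 in p63alphaKO. Car3 passed the filter only through its WT levels.

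The sums of the remaining lists overlapped between groups or were higher in p63alphaKO. Pericyte and smooth muscle markers summed to 56.1 to 107 CPM in p63alphaKO and to 95.1 to 129 CPM in WT, with 0 of 2 tested called and Kcnj8 and Abcc9 at 0 in p63alphaKO. Notch3 alone held 55.7 CPM of the p63alphaKO mean of 80.2 CPM and 65.3 CPM of the WT mean of 116 CPM. Des, a muscle filament gene on that list, was at 0.56 to 1.49 CPM in p63alphaKO and at 4.09 to 17.9 CPM in WT, without overlap. Macrophage and other immune markers summed to 26.0 to 34.0 CPM in p63alphaKO and to 30.1 to 52.6 CPM in WT, with 0 tested. Single markers of that list went opposite ways without overlap, at low levels. Ptprc was at 0 to 0.85 CPM in p63alphaKO and 3.12 to 6.61 CPM in WT, and Tyrobp at 0 to 1.69 and 1.95 to 4.02 CPM. Cd74 was at 3.28 to 4.95 CPM in p63alphaKO and 0.94 to 1.17 CPM in WT. Schwann cell markers summed to 202 to 261 CPM in p63alphaKO and to 199 to 249 CPM in WT, with 0 of 5 tested called and Cdh19 at 0 in WT. Melanocyte markers, from cells that reside in the epidermis and hair follicles, summed to 339 to 481 CPM in p63alphaKO and to 193 to 332 CPM in WT, with 0 of 3 tested called. The part of carried-over dermis, muscle, vessels or blood in the lower levels of the members was not tested.

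**Figure D5:**
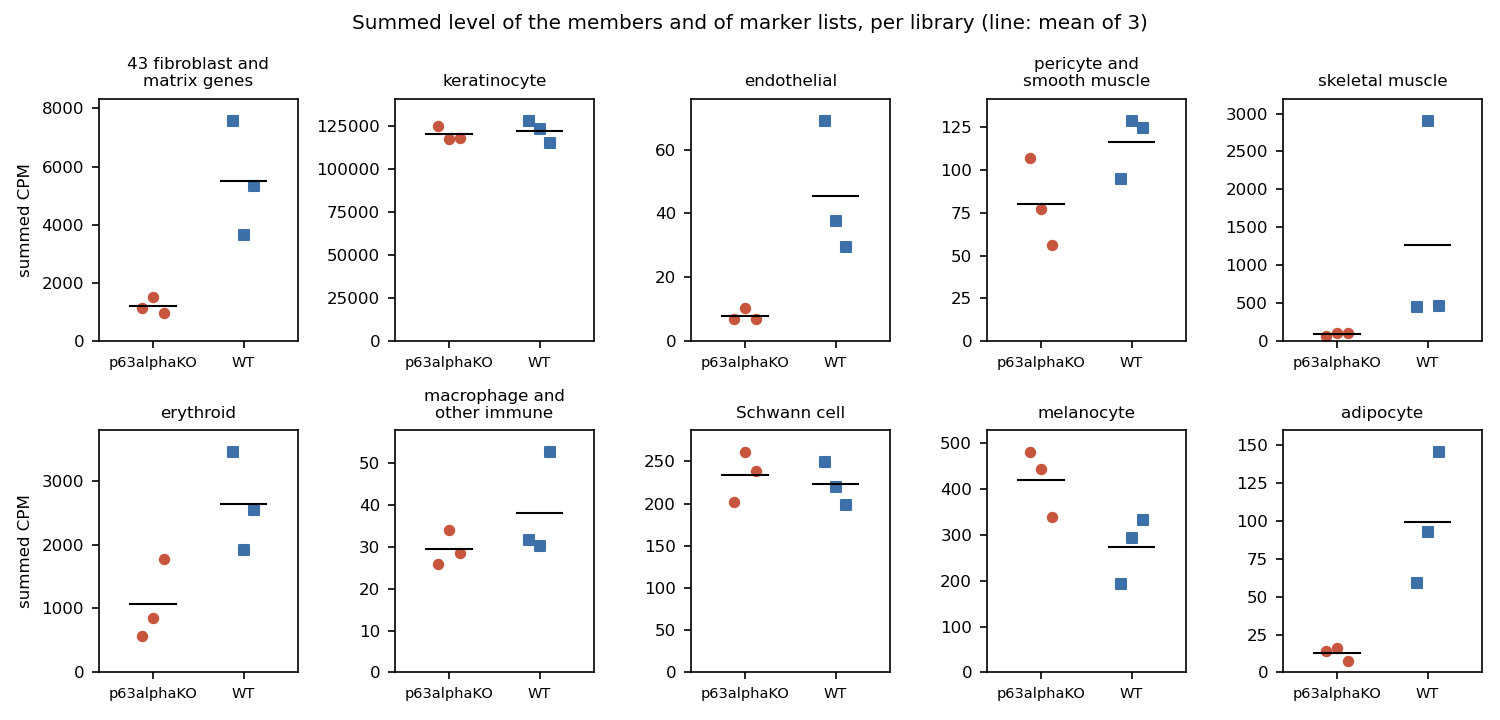
Summed CPM of the 43 members and of the marker lists of 9 cell types in each library, with p63alphaKO circles left of WT squares, a line at the mean of 3, and every vertical axis starting at 0. The members, skeletal muscle, erythroid, endothelial and adipocyte sums lie lower in all p63alphaKO libraries than in all WT libraries, and the keratinocyte sums overlap.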

How the data were processed

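The 6 libraries were sequenced as 3′ digital mRNA libraries, per the labels' protocols. The submitters' processing notes name STAR, HTSeq and the genome build mm10; versions, annotation and strand setting were not stated there. The authors deposited a table titled as normalized counts with column sums of 999157 to 999401. The deposited values were therefore read as CPM, in which each library is divided by its own total. Every value above 0 was a whole multiple of 1 read within 0.0055 CPM (100% in each library), which gave whole reads and totals of 2566406 to 4478549. A level of 10 CPM is 25.7 to 44.8 reads and 3 reads are 0.670 to 1.17 CPM. Intervals from reads cover counting error only.

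Groups were compared on log2(CPM + 1) with limma-trend (limma 3.58.1 in R 4.3.3), with no covariate and two-sided p-values, over genes averaging 10 CPM or more, called at an adjusted p under 0.05 over all tested genes. Fold changes on this scale understate changes of low genes. edgeR 4.0.16 and DESeq2 1.42.0 were run on the recovered reads as alternatives, and edgeR called 82 genes. Of the steps, only the limma fit, run without the filter, was tested on simulated counts. The members and lists were chosen with earlier results of these data known. Named are all members, all called genes of the stromal and collagen-processing lists, the 2 most abundant of each without a call, and markers by their sums; genes named outside this rule are marked or stand among the markers.

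Positions are from GENCODE mouse release M21 (GRCm38, mm10), 1-based. Exons of 16 members overlap a gene on the other strand, among the called ones Col5a1, Eln, Fbn1, Fbn2, Fn1 and Gas1, and exons of Col3a1 overlap Gm47302 on its own strand. Values of these genes are uncertain where reads were not assigned by strand.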

Additional observations from a re-analysis of the deposited data

How the results depend on the processing

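The 31 tested members kept the sign of their fold change under each alternative run (30 negative, Tnc positive), and their median log2 fold change lay between -2.13 and -1.49. Of the 22 calls, 12 held with each library left out in turn and 9 held under every alternative in which they were tested (19, or 18 for Col5a2, Fbn2 and Lum, which a minimum mean of 50 CPM removes): Col1a1, Col1a2, Col3a1, Col5a2, Fbn2, Dcn, Lum, Fstl1 and Gas1. The number of members called was 13 to 24 with 1 library left out, lowest without p63alphaKO replicate 3, 10 of 14 tested with a minimum mean of 50 CPM, 11 without a variance trend, 18 with edgeR and 23 with DESeq2. Over all genes, 123 calls became 36 with that minimum, 41 without a trend, 318 with library quality weights and 317 with DESeq2, and 38 to 179 with 1 library left out. Other stromal genes had 8 calls, 1 with that minimum, 3 without a trend, 14 with DESeq2, and 1 to 11 with 1 library left out. The collagen-processing list had 1 call and 0 with no filter, a minimum mean of 50 CPM, TMM, upper quartile or median-of-ratios factors, quantile normalization, no variance trend or edgeR, and 0 to 1 with 1 library left out; for none of these was the cause tested, except that fewer genes are tested under a higher minimum.

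With TMM factors the median over all tested genes was 0.021 on the log2 scale, against -0.085 as deposited, and that of the members was -1.72. Replicate numbers are shared between the genotypes, but same-numbered libraries did not deviate together (r = -0.023, 0.066 and -0.11). With so few libraries a group, these values cannot settle whether the numbers mark a pairing. The sample titles give only the number. With the replicate block, 21 members were called and all of them were among the 22, with Fbn1 lost. At these depths the 12 members under 10 CPM had 0 to 89 reads per library, which limits what could be tested.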
